A study of Mus musculus with 15 samples.

Results

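The 38 microglia and macrophage genes described here were named by symbol: 7 homeostatic microglial genes, 10 genes of activation and phagocytosis, 3 genes of colony-stimulating factor signalling, 4 Fc receptor genes, 10 leukocyte surface and lysosomal genes, and 4 genes for actin regulators or transcription factors. They were found among 18193 genes that the array's annotation names by a single symbol, through 70 probe sets, and each gene is represented by its brightest probe set, the one with the highest mean over all arrays. Of the 38, 35 lay among the brightest 60% of probe sets, by their mean over all arrays, and were tested. Itgam, Trem2 and Cd86 lay under that filter, at a mean log2 intensity under 5.46, and have values but no test. Levels are log2(intensity + 16), which understates the change of dim genes, and a difference is between group means on that scale.

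RNA of mouse forebrain was hybridised to 15 Affymetrix mouse expression arrays, which carry several short probes per probe set, in 3 groups of 5. VEH-Sham 1 to 5 received vehicle and sham surgery, VEH-HI 6 to 10 vehicle and hypoxic ischemia, and EPO-HI 11 to 15 erythropoietin (EPO, the hormone that drives red cell production), at 5 U per g into the peritoneum, and hypoxic ischemia. Every injection came 1 h before the procedure, so all groups carry an injection and none received erythropoietin without injury. The sources used here do not give strain, genotype, age, sex, the interval from injury to tissue collection or a batch, and they do not state that arrays of a group came from separate animals. The p-values therefore measure spread between these samples only, and that spread may be technical.

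Microglia are the resident macrophages of the brain. In the healthy brain they express the purine receptors P2ry12 and P2ry13, the fractalkine receptor Cx3cr1, Tmem119 and Siglech, which are widely used as homeostatic markers, and they depend on signalling through the receptor encoded by Csf1r. After ischemia, microglia and macrophages that enter from blood take up debris, and genes of lysosomes, phagocytosis and Fc receptors are commonly used to follow that state. The transcription factor PU.1, encoded by Spi1, binds purine-rich sites with a GGAA core and is needed for the myeloid lineage.

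Promoter sequence is shown for 6 members whose values are given further on. Of these, 4 were picked because they were higher after injury and hold the letters GAGGAA, which contain the PU.1 core, and the other two are the purine receptor genes that were lower. The set is an illustration chosen with values and letters known, and it does not stand for all members that were higher or lower. The RefSeq promoter table (GRCm38.p6) has an entry for 26 of the 38 members. Members without one are Adgre1, Cd52, Cd86, Csf1r, Gpr34, Itgb2, Msr1, P2ry6, Selplg, Spi1, Tmem119 and Tyrobp. Each line gives the 250 bases before the annotated start, 5′ to 3′ in the gene's direction, with GAGGAA or its reverse complement TTCCTC, and the RUNX letters TGTGGT or ACCACA, in capitals.
Pycard (chr7:127993868-127994117, minus strand): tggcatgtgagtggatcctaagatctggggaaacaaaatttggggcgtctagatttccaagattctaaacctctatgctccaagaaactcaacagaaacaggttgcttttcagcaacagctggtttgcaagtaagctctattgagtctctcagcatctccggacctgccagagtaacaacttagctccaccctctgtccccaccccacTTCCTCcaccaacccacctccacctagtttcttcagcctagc
Csf3r (chr4:126024409-126024658, plus strand): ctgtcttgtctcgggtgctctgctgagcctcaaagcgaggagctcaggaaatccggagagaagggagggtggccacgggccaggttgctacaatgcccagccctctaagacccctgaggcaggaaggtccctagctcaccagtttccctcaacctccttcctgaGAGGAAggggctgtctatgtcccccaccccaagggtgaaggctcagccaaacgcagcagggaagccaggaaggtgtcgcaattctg
Cd68 (chr11:69666171-69666420, minus strand): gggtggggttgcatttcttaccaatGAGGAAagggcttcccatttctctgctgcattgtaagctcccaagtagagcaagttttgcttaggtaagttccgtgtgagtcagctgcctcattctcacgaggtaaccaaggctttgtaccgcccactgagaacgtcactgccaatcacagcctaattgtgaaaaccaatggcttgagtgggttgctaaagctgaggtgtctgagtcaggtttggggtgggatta
Fcgr1 (chr3:96293970-96294219, minus strand): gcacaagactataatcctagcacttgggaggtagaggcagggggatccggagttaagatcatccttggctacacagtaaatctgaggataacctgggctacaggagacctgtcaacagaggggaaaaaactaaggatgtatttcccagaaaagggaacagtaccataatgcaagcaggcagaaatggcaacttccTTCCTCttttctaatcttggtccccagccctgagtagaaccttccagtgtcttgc
P2ry13 (chr3:59210883-59211132, minus strand): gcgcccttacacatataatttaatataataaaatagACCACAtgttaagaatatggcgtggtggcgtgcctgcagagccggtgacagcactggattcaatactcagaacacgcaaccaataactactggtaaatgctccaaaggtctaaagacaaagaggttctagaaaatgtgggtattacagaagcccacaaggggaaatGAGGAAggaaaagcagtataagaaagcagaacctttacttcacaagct
P2ry12 (chr3:59262986-59263235, minus strand): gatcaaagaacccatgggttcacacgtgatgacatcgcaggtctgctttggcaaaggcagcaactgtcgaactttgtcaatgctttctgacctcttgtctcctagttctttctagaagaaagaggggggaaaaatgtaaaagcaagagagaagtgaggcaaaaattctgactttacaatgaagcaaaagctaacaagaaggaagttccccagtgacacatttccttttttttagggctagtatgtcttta

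Counted from the start, with negative positions before it, the GAGGAA match began at -42 in Pycard, -86 in Csf3r, -225 in Cd68, -55 in Fcgr1 and -48 in P2ry13, where a RUNX match also began at -214. P2ry12 held neither motif in this window, although the GGAA core alone occurs there, and cores outside GAGGAA were not counted. Mpeg1 and Ly86, which were higher after injury and are not shown, also held neither motif. Runx1, the member that fell furthest, has 2 windows, of which 1 held GAGGAA, at -46. Over both strands, 14 of the 26 member genes (53.8%) held GAGGAA in at least 1 window, beside 25.9% of all 27025 genes in the table. TGTGGT was held by 6 of the 26 (23.1%), beside 15.9% of all genes. In no member did matches of the 2 motifs overlap. A match describes letters in a window, not a bound site.

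The arrays did not all stand alike. The median intensity was 55.3 to 57.9 on VEH-Sham 1 to 4 and 39.2 to 44.4 on VEH-Sham 5 and the 10 hypoxic ischemia arrays. Pearson's r over all tested probe sets was 0.927 to 0.954 between those 2 sets of arrays. It was 0.968 to 0.972 within the first and 0.962 to 0.982 within the second. The 3′ to 5′ ratio, which reflects RNA quality, did not separate the sets for Actb, at 1.28 to 1.40 in the first and 1.24 to 1.50 in the second. For Gapdh it ran from 0.634 to 0.719 in the first set and from 0.716 to 0.756 in the second. Injury and array set therefore overlap, except through VEH-Sham 5, so each member's difference from sham is given with its difference from VEH-Sham 5 alone. With the array set as a block, or with VEH-Sham 5 as the only sham array, 0 of the 35 tested members passed limma's test, with 16 and 14 of them at an unadjusted p under 0.05. No array pair correlated above 0.982, and forebrain neuron markers were well measured, with a summed intensity of 8012 to 12294 per array over 7 genes.

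The first comparison asked how hypoxic ischemia changed these genes under vehicle. All 8 tested activation genes of 10 rose, by 0.33 to 2.14, while none of the 7 homeostatic genes rose and 2 fell, by 0.69 and 0.72. Over all members, 20 of 35 tested genes rose, against 11.9% of all 13168 genes tested, and 3 fell, against 11.5% of all genes. The remaining 12 did not pass (limma, Benjamini-Hochberg adjusted p under 0.05), and none of the 23 calls held with the array set as a block. Of these 23 calls, 15 passed without each library in turn, and without VEH-HI 6 alone the count of called members was 15. The median difference over the 38 members was 0.46, beside -0.06 over all 18193 genes. Against VEH-Sham 5 alone the median was 0.56, beside 0.01 over all genes, and 31 of the 38 members lay above 0. In bulk tissue, a change in the number of cells of a type and a change in RNA per cell cannot be told apart.

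**Figure D1:**
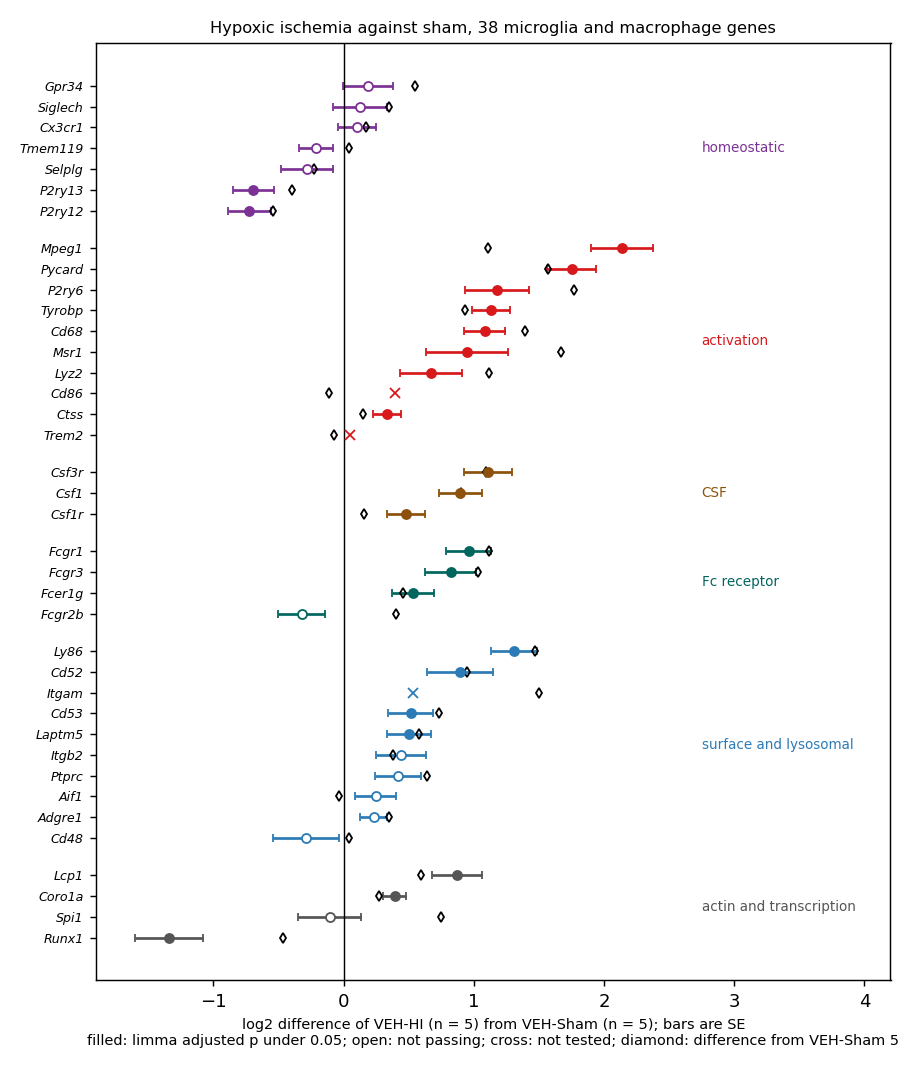
Difference of VEH-HI (n = 5) from VEH-Sham (n = 5) in log2(intensity + 16) for all 38 genes, by role; bars are the standard error of the limma fit, filled points passed the test, open points did not, crosses were not tested and diamonds give the difference from VEH-Sham 5 alone. The activation genes lie from 0.05 to 2.14 and the homeostatic genes from -0.72 to 0.19.

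Single arrays were also compared. In 12 of the 35 tested members every VEH-HI array lay above every VEH-Sham array, beside 4.59% of all genes tested. Csf3r, P2ry6 and Itgb2, among these 12, had sham means under the filter and passed it only through the injured arrays. In 1 member, P2ry12, every VEH-HI array lay below, by a narrow gap, beside 4.09%. Set against VEH-Sham 5, all 10 hypoxic ischemia arrays were higher in 19 tested members, beside 9.69% of all genes, and lower in P2ry12 alone, beside 8.17%. These 19 held 7 of the 8 tested activation genes and none of the 7 homeostatic genes, the latter near the 9.69% of all genes. The 19 also held Fcgr2b and Spi1, for which VEH-Sham 5 was the lowest sham array. From all sham arrays these 2 genes differed by -0.32 and -0.11.

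Among homeostatic genes, the purine receptors fell. P2ry12, the ADP receptor that steers microglial processes towards injury, measured 7.94, 8.38, 8.40, 8.07 and 7.97 in VEH-Sham 1 to 5 and 7.10, 7.08, 7.39, 7.93 and 7.64 in VEH-HI 6 to 10. It was 6.98, 7.77, 7.35, 7.27 and 7.05 in EPO-HI 11 to 15. All 10 injured arrays lay below all 5 sham arrays, VEH-Sham 5 included, but the gap was narrow, with VEH-HI 9 at 7.93 and VEH-Sham 1 at 7.94. Under vehicle P2ry12 fell by 0.72 (limma adjusted p = 0.00584, SE 0.17), with a difference of -0.55 from VEH-Sham 5 and of -0.77 from VEH-Sham 1 to 4. P2ry13, a related purine receptor, measured 7.25, 7.19, 7.41, 7.30 and 6.92 in VEH-Sham 1 to 5 and 6.31, 6.53, 6.08, 6.99 and 6.70 in VEH-HI 6 to 10. The EPO-HI arrays gave 6.33, 6.84, 6.64, 6.48 and 6.52. Only VEH-HI 9 reached the sham range, where VEH-Sham 5 was the lowest array, and the 10 injured arrays were all below VEH-Sham 1 to 4. Under vehicle P2ry13 fell by 0.69 (limma adjusted p = 0.00502, SE 0.16), with a difference of -0.40 from VEH-Sham 5 and of -0.77 from VEH-Sham 1 to 4.

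The other 5 homeostatic genes did not pass the test. Tmem119, a transmembrane protein used to separate microglia from other macrophages, measured 6.86, 6.96, 6.87, 7.04 and 6.61 in VEH-Sham 1 to 5 and 6.43, 6.77, 6.73, 6.70 and 6.64 in VEH-HI 6 to 10. EPO-HI 11 to 15 gave 6.28, 6.78, 6.58, 6.74 and 6.43. VEH-Sham 1 to 4 lay above all 10 injured arrays, whereas VEH-Sham 5 lay inside the injured range. The difference of Tmem119 was -0.21 and did not pass (limma adjusted p = 0.237, SE 0.13), with a difference of 0.04 from VEH-Sham 5 and of -0.28 from VEH-Sham 1 to 4. Selplg, the P-selectin ligand PSGL-1, measured 5.88, 6.36, 6.75, 6.13 and 6.21 in VEH-Sham 1 to 5 and 6.21, 5.26, 6.15, 6.14 and 6.16 in VEH-HI 6 to 10. EPO-HI 11 to 15 held 5.77, 6.30, 5.66, 6.12 and 5.81. Its groups overlapped, with VEH-HI 7 far below the other VEH-HI arrays. The difference of Selplg was -0.28 and did not pass (limma adjusted p = 0.32, SE 0.20), with a difference of -0.23 from VEH-Sham 5 and of -0.30 from VEH-Sham 1 to 4. Gpr34, a receptor for lysophosphatidylserine, differed by 0.19, Cx3cr1 by 0.10 and Siglech, a lectin, by 0.13, and none of the 3 passed (limma adjusted p of 0.514, 0.634 and 0.687). Their differences from VEH-Sham 5 were 0.55, 0.17 and 0.34, in the same order. Against VEH-Sham 5 the 7 homeostatic genes had a median difference of 0.04, with 4 above 0.

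**Figure D2:**
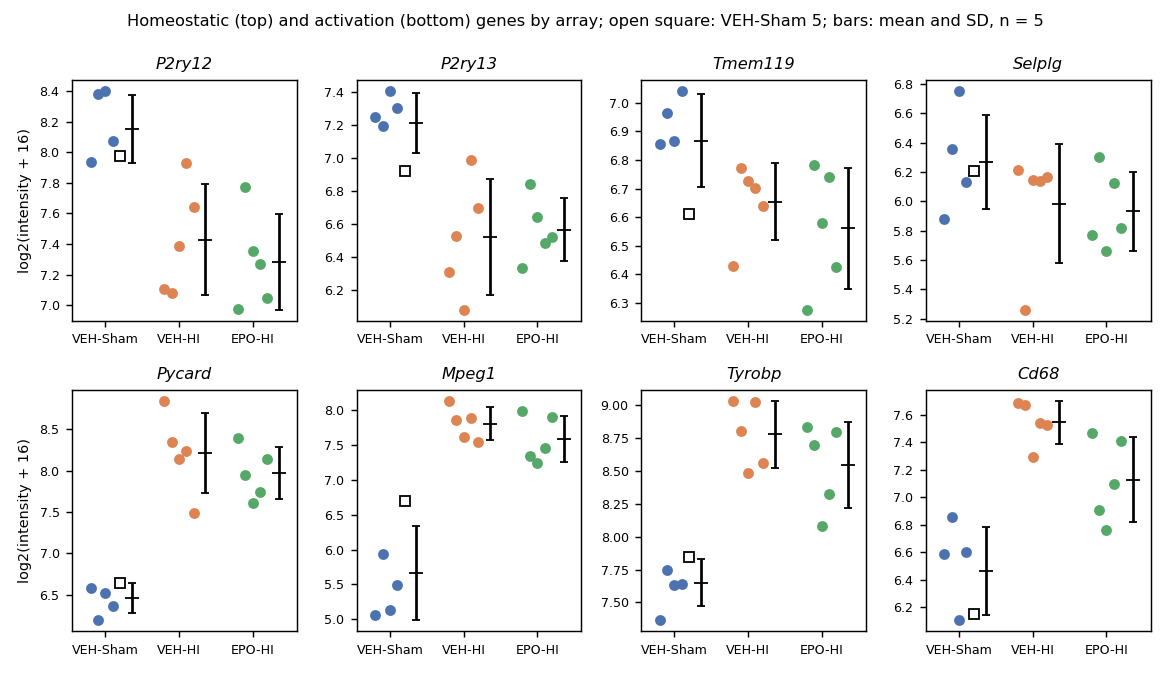
Level in log2(intensity + 16) on each array for 4 homeostatic genes (top) and 4 activation genes (bottom); points are arrays, the open square is VEH-Sham 5, and the bar gives the mean and SD of the 5 arrays. The injured arrays lie above all sham arrays in Pycard, Mpeg1, Tyrobp and, under vehicle, Cd68, and below them in P2ry12.

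The tested activation genes all rose after injury. Pycard, which encodes the inflammasome adaptor ASC, measured 6.58, 6.20, 6.52, 6.36 and 6.64 in VEH-Sham 1 to 5 and 8.84, 8.35, 8.14, 8.24 and 7.49 in VEH-HI 6 to 10. In the EPO-HI group it gave 8.40, 7.95, 7.61, 7.74 and 8.14. The lowest injured array, VEH-HI 10, lay above the highest sham array, VEH-Sham 5. Under vehicle Pycard rose by 1.75 (limma adjusted p = 2.75e-05, SE 0.19), with a difference of 1.57 from VEH-Sham 5 and of 1.80 from VEH-Sham 1 to 4. The other 2 probe sets of Pycard, too dim to be tested, had differences of -0.56 and -0.86, and the mean over all 3 differed by 0.11 and did not pass. Mpeg1, which encodes the pore-forming protein perforin-2 of macrophages, measured 5.06, 5.94, 5.14, 5.49 and 6.70 in VEH-Sham 1 to 5 and 8.13, 7.86, 7.61, 7.88 and 7.54 in VEH-HI 6 to 10. In EPO-HI it was 7.99, 7.34, 7.25, 7.45 and 7.89. VEH-Sham 5 was the highest sham array, yet all injured arrays were above it. Under vehicle Mpeg1 rose by 2.14 (limma adjusted p = 2.96e-05, SE 0.24), with a difference of 1.11 from VEH-Sham 5 and of 2.40 from VEH-Sham 1 to 4.

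Tyrobp, the signalling adaptor DAP12 that serves TREM2 and other receptors, measured 7.37, 7.75, 7.64, 7.64 and 7.85 in VEH-Sham 1 to 5 and 9.03, 8.81, 8.48, 9.02 and 8.56 in VEH-HI 6 to 10. The EPO-treated arrays gave 8.83, 8.70, 8.08, 8.32 and 8.79. No injured array overlapped with sham. Under vehicle Tyrobp rose by 1.13 (limma adjusted p = 0.000144, SE 0.15), with a difference of 0.93 from VEH-Sham 5 and of 1.18 from VEH-Sham 1 to 4. Cd68, a lysosomal glycoprotein of phagocytes, measured 6.59, 6.86, 6.11, 6.61 and 6.15 in VEH-Sham 1 to 5 and 7.68, 7.67, 7.29, 7.54 and 7.53 in VEH-HI 6 to 10. With erythropoietin it was 7.47, 6.90, 6.76, 7.10 and 7.41. The VEH-HI arrays lay above all sham arrays, while EPO-HI 13 fell within the sham range set by VEH-Sham 2. Under vehicle Cd68 rose by 1.08 (limma adjusted p = 0.000421, SE 0.16), with a difference of 1.39 from VEH-Sham 5 and of 1.00 from VEH-Sham 1 to 4.

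The other 6 activation genes ranged more widely. P2ry6, the UDP receptor that triggers microglial phagocytosis, rose by 1.18 (limma adjusted p = 0.00319), and the difference from VEH-Sham 5 was 1.77. The sham mean of P2ry6, 5.17, lay under the filter at 5.46, which it passed only through the injured arrays. Msr1, a scavenger receptor, rose by 0.95 (adjusted p = 0.0356), with a difference of 1.67 from VEH-Sham 5, and its other 3 probe sets, all too dim to be tested, had differences above 0. The Msr1 call was lost without VEH-Sham 1, 2, 3 or 5 or VEH-HI 6 or 7, at adjusted p from 0.0592 to 0.11. Lyz2, the lysozyme of myeloid cells, rose by 0.67 (limma adjusted p = 0.0455), and differed by 1.11 from VEH-Sham 5. Its call was lost without any 1 of 10 libraries (each VEH-Sham array, VEH-HI 6 to 9 and EPO-HI 12), at adjusted p from 0.0531 to 0.129. Ctss, a lysosomal protease, rose by 0.33 (limma adjusted p = 0.0331) and differed by 0.15 from VEH-Sham 5, a call lost without VEH-Sham 1, 3 or 4 or VEH-HI 6, 8 or 9. The 2 untested genes were Cd86, a co-stimulatory ligand, with a difference of 0.40, and Trem2, a lipid-sensing receptor, with 0.05. Against VEH-Sham 5 the differences were -0.11 for Cd86 and -0.08 for Trem2.

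Per array, the mean of the 10 activation genes minus the mean of the 7 homeostatic genes summarises that contrast. It ran from -0.90 to -0.53 in VEH-Sham, where VEH-Sham 5 had the highest value, from 0.08 to 0.70 in VEH-HI and from -0.01 to 0.88 in EPO-HI. No injured array overlapped with sham. The median difference of activation genes exceeded that of homeostatic genes by 1.23 between VEH-HI and VEH-Sham, and by 1.07 with VEH-Sham 5 as the only sham array. This difference has no test, since the members were chosen.

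**Figure D3:**
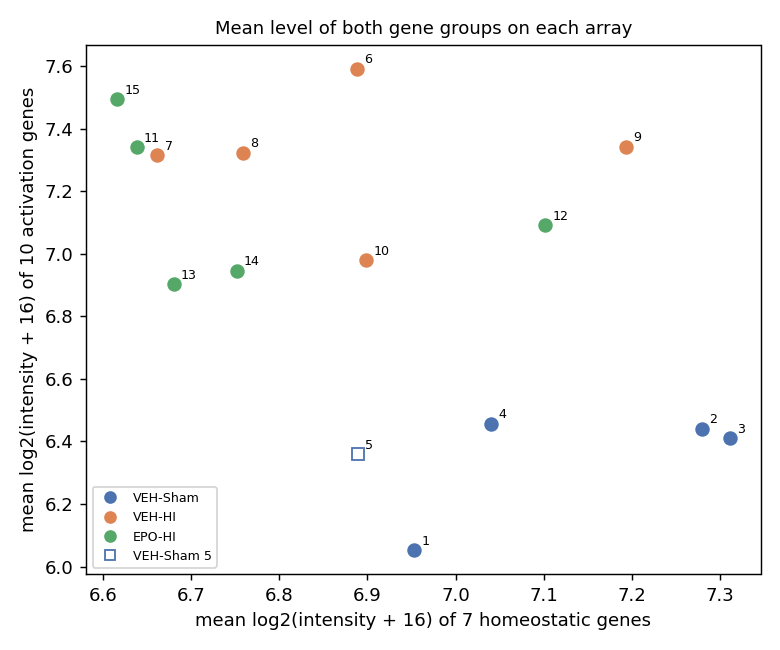
Mean log2(intensity + 16) of the 10 activation genes (vertical) against that of the 7 homeostatic genes (horizontal) on each of the 15 arrays, numbered as in the labels; the open square is VEH-Sham 5. Sham arrays lie at 6.05 to 6.46 on the activation axis and injured arrays at 6.90 to 7.59, while the homeostatic means of sham (6.89 to 7.31) and injured arrays (6.62 to 7.19) overlap.

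All 3 genes of colony-stimulating factor signalling rose, beside 11.9% of all genes tested. Csf3r, the granulocyte colony-stimulating factor receptor of neutrophils and other myeloid cells, measured 4.91, 5.03, 4.88, 4.90 and 4.95 in VEH-Sham 1 to 5 and 5.67, 6.41, 6.39, 5.96 and 5.79 in VEH-HI 6 to 10. EPO-HI 11 to 15 were at 5.94, 5.71, 5.83, 5.69 and 5.34. The 5 sham arrays lay close together, and every injured array was above them. The sham mean of 4.94 lay under the filter at 5.46, which Csf3r passed only through the injured arrays, with a mean of 5.56 over all arrays. Under vehicle Csf3r rose by 1.11 (limma adjusted p = 0.000979, SE 0.19), with a difference of 1.09 from VEH-Sham 5 and of 1.11 from VEH-Sham 1 to 4. Csf1, the ligand that maintains microglia, measured 6.41, 6.77, 6.22, 6.50 and 6.46 in VEH-Sham 1 to 5 and 7.73, 7.45, 7.44, 7.06 and 7.16 in VEH-HI 6 to 10. The erythropoietin arrays were at 7.61, 6.76, 6.78, 7.19 and 7.35. VEH-HI did not overlap with sham, whereas EPO-HI 12 lay just inside the sham range. Under vehicle Csf1 rose by 0.90 (limma adjusted p = 0.00166, SE 0.17), with a difference of 0.90 from VEH-Sham 5 and of 0.89 from VEH-Sham 1 to 4. The result depended on the probe set: the other 3 tested probe sets of Csf1 differed by -1.33, -0.41 and -0.10, the first of them called lower (limma adjusted p = 0.00132), and the mean over all 4 was -0.24. Csf1r, the receptor for this ligand, measured 9.87, 10.04, 9.31, 9.42 and 10.06 in VEH-Sham 1 to 5 and 10.57, 10.14, 10.02, 10.06 and 10.30 in VEH-HI 6 to 10. Under erythropoietin it was 9.96, 10.31, 9.76, 10.04 and 9.89. The groups overlapped, and VEH-Sham 5 was the highest sham array. Under vehicle Csf1r rose by 0.48 (limma adjusted p = 0.0242, SE 0.15), with a difference of 0.15 from VEH-Sham 5 and of 0.56 from VEH-Sham 1 to 4. Another probe set of Csf1r differed by 0.10 and the last fell by 0.42 (limma adjusted p = 0.031). The Csf1r call was also lost without VEH-Sham 3, VEH-Sham 4 or VEH-HI 6, at adjusted p from 0.0692 to 0.0791.

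**Figure D4:**
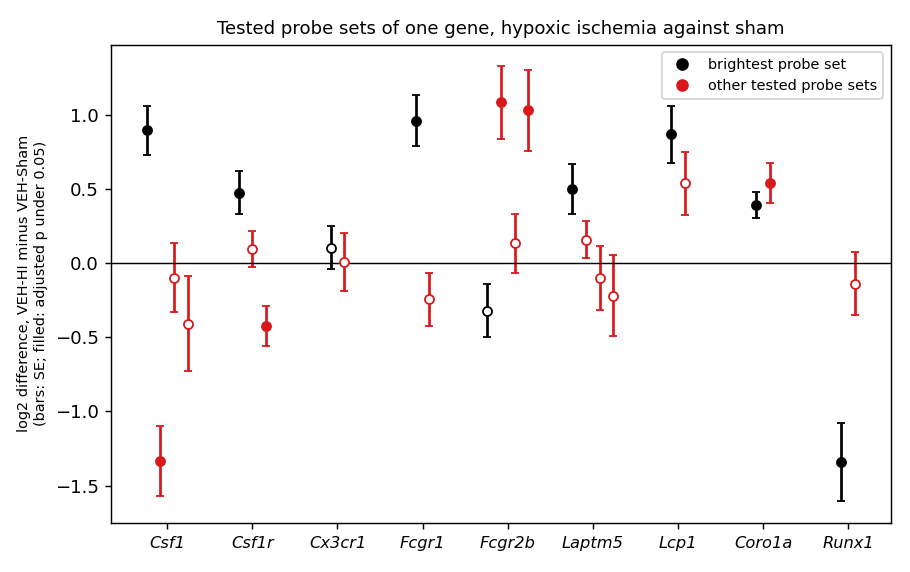
Difference of VEH-HI from VEH-Sham (n = 5 each) in log2(intensity + 16) for the 9 members with more than 1 tested probe set; black marks the brightest probe set, red the others, bars are the standard error of the limma fit and filled points passed the test. The 4 probe sets of Csf1 run from -1.33 to 0.90, and the 4 tested for Fcgr2b from -0.32 to 1.08.

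Of the 4 Fc receptor genes, 3 rose, beside 11.9% of all genes tested. Fcgr1, the high-affinity receptor for IgG, measured 5.47, 5.91, 5.98, 6.04 and 5.66 in VEH-Sham 1 to 5 and 7.07, 6.84, 6.64, 6.69 and 6.62 in VEH-HI 6 to 10. The EPO-HI values were 6.57, 6.84, 6.86, 6.18 and 7.23. All injured arrays exceeded sham. Under vehicle Fcgr1 rose by 0.96 (limma adjusted p = 0.00151, SE 0.17), with a difference of 1.11 from VEH-Sham 5 and of 0.92 from VEH-Sham 1 to 4. Its second tested probe set differed by -0.24, and neither it nor the mean of both passed. Fcgr3, an activating low-affinity receptor, measured 7.01, 6.92, 7.04, 6.92 and 6.71 in VEH-Sham 1 to 5 and 8.27, 7.67, 7.84, 7.82 and 7.10 in VEH-HI 6 to 10. Among EPO-HI arrays it gave 7.74, 7.48, 6.97, 6.73 and 7.69. VEH-HI lay above all sham arrays, but EPO-HI 13 and 14 lay within the sham range. Under vehicle Fcgr3 rose by 0.82 (limma adjusted p = 0.0066, SE 0.19), with a difference of 1.03 from VEH-Sham 5 and of 0.77 from VEH-Sham 1 to 4. Fcer1g, the signalling chain of the activating Fc receptors, rose by 0.53 (limma adjusted p = 0.0233) and differed by 0.45 from VEH-Sham 5, a call lost without VEH-Sham 1, 3 or 4 or VEH-HI 6. Fcgr2b, the inhibitory receptor, differed by -0.32 and did not pass (limma adjusted p = 0.201). For Fcgr2b the sham arrays decided the direction, since the difference was -0.50 from VEH-Sham 1 to 4 and 0.40 from VEH-Sham 5, and 2 of its other probe sets were called higher, by 1.08 and 1.03. Fcgr2b and Fcgr3 have related sequences, so probes of 1 may detect the other, and their separate values are uncertain.

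Among surface and lysosomal genes, 4 of 9 tested rose, beside 11.9% of all genes tested, and 5 did not pass. Ly86, the MD-1 partner of the receptor CD180, measured 7.28, 7.61, 7.14, 7.22 and 7.12 in VEH-Sham 1 to 5 and 9.09, 8.79, 8.05, 8.62 and 8.35 in VEH-HI 6 to 10. The treated arrays 11 to 15 gave 8.85, 8.64, 8.45, 7.91 and 8.74. No injured array overlapped with sham. Under vehicle Ly86 rose by 1.31 (limma adjusted p = 0.000218, SE 0.18), with a difference of 1.47 from VEH-Sham 5 and of 1.27 from VEH-Sham 1 to 4. Cd52, a small glycoprotein of leukocyte surfaces, measured 5.62, 5.60, 5.76, 5.96 and 5.66 in VEH-Sham 1 to 5 and 7.35, 7.07, 6.66, 6.10 and 5.89 in VEH-HI 6 to 10. Its EPO-HI values were 6.91, 6.25, 5.86, 6.16 and 7.08. VEH-HI 10 and EPO-HI 13 lay within the sham range, and the other 8 injured arrays above it. Under vehicle Cd52 rose by 0.89 (limma adjusted p = 0.0176, SE 0.25), with a difference of 0.95 from VEH-Sham 5 and of 0.88 from VEH-Sham 1 to 4. Without VEH-HI 6 its adjusted p was 0.0543. Cd53, a tetraspanin of leukocytes, rose by 0.52 (limma adjusted p = 0.0382) and Laptm5, a lysosomal membrane protein, rose by 0.50 (limma adjusted p = 0.0379). From VEH-Sham 5 they differed by 0.73 and 0.58. Both calls were lost without some single libraries: for Cd53 without VEH-Sham 1, 2 or 5 or VEH-HI 6, 8 or 9, and for Laptm5 without VEH-Sham 1 or 4 or VEH-HI 6 or 7. The other probe set of Cd53, too dim to be tested, differed by -0.57, and the mean over both differed by -0.028 and did not pass (limma adjusted p = 0.913). Of the other 4 probe sets of Laptm5, 1 had a difference above 0.

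The genes that did not pass included the standard macrophage antigens. Adgre1, an adhesion receptor used to stain macrophages, differed by 0.23 (limma adjusted p = 0.109), and Aif1, which encodes the actin-binding protein IBA1, differed by 0.25 (adjusted p = 0.257). Ptprc, the leukocyte phosphatase CD45, differed by 0.42 (limma adjusted p = 0.0922), while its other probe set, too dim to be tested, differed by -1.29. Itgb2, the CD18 integrin chain, differed by 0.44 (limma adjusted p = 0.101), with all its VEH-HI arrays above all sham arrays. Cd48, a ligand of lymphocyte receptors, differed by -0.29 (limma adjusted p = 0.424). From VEH-Sham 5 the differences were 0.35 for Adgre1, -0.04 for Aif1, 0.64 for Ptprc, 0.38 for Itgb2 and 0.04 for Cd48. Itgam, the CD11b integrin chain, was not tested and differed by 0.53 from all sham arrays and by 1.50 from VEH-Sham 5, which at 4.07 was the dimmest array for it.

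Actin regulators and transcription factors moved in both directions. Lcp1, the actin bundler L-plastin, measured 5.77, 5.72, 6.17, 5.90 and 6.24 in VEH-Sham 1 to 5 and 7.25, 6.85, 7.17, 6.67 and 6.21 in VEH-HI 6 to 10. Its values under erythropoietin were 7.14, 6.57, 6.24, 6.45 and 6.47. VEH-HI 10 lay just below VEH-Sham 5, the highest sham array, and every other injured array lay above sham. Under vehicle Lcp1 rose by 0.87 (limma adjusted p = 0.00477, SE 0.19), with a difference of 0.59 from VEH-Sham 5 and of 0.94 from VEH-Sham 1 to 4. Its second tested probe set differed by 0.54 and did not pass (limma adjusted p = 0.069), with a difference of -0.07 from VEH-Sham 5. Coro1a, an actin regulator of leukocytes, rose by 0.39 (SE 0.09, limma adjusted p = 0.00485), with all injured arrays above all sham arrays and a difference of 0.27 from VEH-Sham 5. A second tested probe set of Coro1a rose by 0.54 (limma adjusted p = 0.00969), and the third, too dim to be tested, differed by -0.49. The mean over all 3 did not pass. Runx1, a transcription factor of blood cell development, measured 7.05, 7.41, 7.47, 7.29 and 6.21 in VEH-Sham 1 to 5 and 5.82, 4.78, 6.48, 5.50 and 6.14 in VEH-HI 6 to 10. With erythropoietin, Runx1 gave 5.60, 5.53, 5.42, 5.87 and 5.83. It was the member that fell furthest, but VEH-Sham 5 lay well below the other sham arrays, and VEH-HI 8 lay above VEH-Sham 5. Under vehicle Runx1 fell by 1.34 (limma adjusted p = 0.0024, SE 0.26), with a difference of -0.47 from VEH-Sham 5 and of -1.56 from VEH-Sham 1 to 4. A second tested probe set of Runx1 differed by -0.14 and did not pass (limma adjusted p = 0.667), and it differed by 0.33 from VEH-Sham 5. The mean over all 6 Runx1 probe sets differed by -0.33 and did not pass. Spi1, which encodes PU.1, differed by -0.11 (limma adjusted p = 0.781), and by -0.32 from VEH-Sham 1 to 4 against 0.75 from VEH-Sham 5.

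Other microglia and macrophage genes, a list of 44, moved less uniformly. Of 32 tested, 11 rose, beside 11.9% of all genes tested, 1 fell, beside 11.5%, and 20 did not pass. The median difference was 0.15 over the 41 that had a probe set, beside -0.06 over all genes. Against VEH-Sham 5 it was 0.42, beside 0.01 over all genes. The smallest p-values belonged to Plek, a substrate of protein kinase C in blood cells, which rose by 1.57 (SE 0.19, limma adjusted p = 6.06e-05), and to C1qc and C1qa, subunits of the first complement component, which rose by 1.33 and 1.00. Cd74, the invariant chain of class II antigen presentation, fell by 0.69 (limma adjusted p = 0.0124), but it stood at 6.67 on VEH-Sham 5 and at 7.49 to 7.69 on VEH-Sham 1 to 4, and VEH-HI was 0.06 above VEH-Sham 5.

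Markers of other cell types were set beside the 11.9% of all genes that rose and the 11.5% that fell. Of border macrophage genes, 3 of 4 tested rose: Mrc1 by 0.67, Lyve1 by 1.15 and Pf4 by 0.51, and the summed intensity of the 7 genes was 359 to 529 in VEH-Sham, 545 to 773 in VEH-HI and 479 to 723 in EPO-HI. For 12 neutrophil and monocyte genes the sum was 286 to 494 in VEH-Sham, 269 to 3129 in VEH-HI and 301 to 1315 in EPO-HI, and 1 of 8 tested rose, S100a9, by 2.45, a share near that of all genes. That sum was 1039 on VEH-HI 6, 3129 on VEH-HI 8 and 1315 on EPO-HI 15, and at most 498 on every other array. On these 3 arrays it rested mainly on S100a8, S100a9 and Lcn2, which stood at 10.21, 10.13 and 9.21 on VEH-HI 8. Over the 12 genes the median difference of VEH-HI from VEH-Sham was -0.10, with 7 below 0 and 5 above. The sham mean of S100a9, 4.84, lay under the filter. Of 3 tested lymphocyte genes, 0 rose and 1 fell by limma, with 1 of 3 at an unadjusted p under 0.05. The gene that fell was Ighm, an immunoglobulin heavy chain, by 0.51 (limma adjusted p = 0.0464), but it stood at 6.45 on VEH-Sham 5 and at 7.27 to 7.75 on VEH-Sham 1 to 4, and VEH-HI was 0.27 above VEH-Sham 5. Of 2 tested red blood cell genes, 0 were called by limma, with 1 at an unadjusted p under 0.05. No gene of these lists was listed at 0. The part of these cells in the members' differences, Csf3r and Lyz2 included, was not tested. Forebrain neuron genes had 2 of 7 lower and 0 higher, with sums of 11266 to 12294 in VEH-Sham, 8012 to 11628 in VEH-HI and 9402 to 11618 in EPO-HI.

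The second comparison asked what erythropoietin before the injury changed. By limma, 0 of the 35 tested members passed, against 0% of all 13168 genes, with 3 members and 464 genes at an unadjusted p under 0.05. Most members were slightly lower with erythropoietin: 35 of 38 differences were below 0, beside 52.9% of all genes, with a median of -0.10, beside -0.01. The count rested in part on single arrays, since it was 22 of 38 without VEH-HI 6 and 26 of 38 without EPO-HI 14. The mean over all members per array was 6.93 to 7.42 in VEH-HI and 6.83 to 7.21 in EPO-HI, so the groups overlapped.

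**Figure D5:**
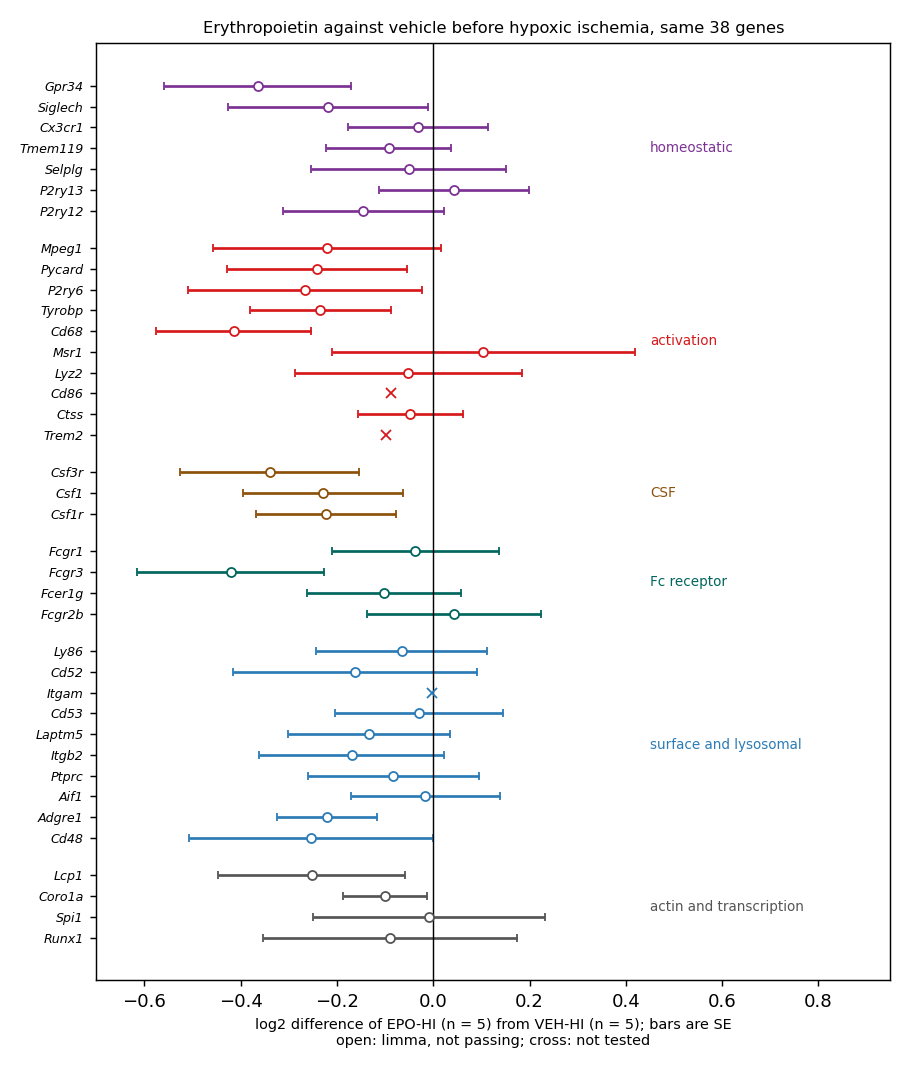
Difference of EPO-HI (n = 5) from VEH-HI (n = 5) in log2(intensity + 16) for the 38 genes, by role; bars are the standard error of the limma fit, open points did not pass and crosses were not tested. The differences run from -0.42 for Fcgr3 to 0.10 for Msr1, and 35 of 38 are below 0.

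The smallest unadjusted p-values belonged to Cd68, Fcgr3 and Adgre1. Cd68 was 7.29 to 7.68 in VEH-HI and 6.76 to 7.47 in EPO-HI, a difference of -0.42 (SE 0.16, limma adjusted p = 1). In 3 of the 5 EPO-HI arrays Cd68 lay below every VEH-HI array. Fcgr3 differed by -0.42 (SE 0.19, limma adjusted p = 1), with EPO-HI 13 and 14 below every VEH-HI array. Adgre1 measured 7.26, 7.48, 7.45, 7.43 and 7.26 in VEH-Sham 1 to 5 and 7.66, 7.66, 7.42, 7.70 and 7.59 in VEH-HI 6 to 10. EPO-HI 11 to 15 had 7.51, 7.29, 7.23, 7.34 and 7.56 for it. The difference of Adgre1 from VEH-HI was -0.22 (SE 0.10, limma adjusted p = 1), and the groups overlapped. Activation genes differed by a median of -0.16 and homeostatic genes by -0.09, so the contrast between them moved by -0.07, a value that turned positive without VEH-HI 6 (0.04) or VEH-HI 7 (0.03). Msr1 at 0.10, P2ry13 and Fcgr2b, both at 0.04, were the members above 0.

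The third comparison set erythropoietin-treated injured forebrain against sham and shares its arrays with the others, so its values are only placed beside theirs. Of the 35 tested members, 13 were higher and 3 lower, beside 8.86% and 9.46% of all genes, and 19 did not pass. With the array set as a block, or with VEH-Sham 5 as the only sham array, 0 of the 35 passed limma's test, with 14 at an unadjusted p under 0.05 in each, and with equal array medians 25 passed. Equal medians also called 8603 of all 27022 tested probe sets, 88.7% of them higher. They moved the median difference of all tested probe sets from -0.05 to 0.22. The median difference of the 38 members in the main fit was 0.32. Pycard was 1.51 above sham with erythropoietin and 1.75 above it under vehicle. Mpeg1 was 1.92 and 2.14 above, and Ly86 1.24 and 1.31. P2ry12 was 0.87 below sham with erythropoietin and 0.72 below it under vehicle, and Runx1 1.43 and 1.34 below. Cd68 was 0.67 above sham with erythropoietin and 1.08 above under vehicle. Against VEH-Sham 5 the median of the 38 members was 0.40 with erythropoietin and 0.56 under vehicle.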

How the data were processed

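Total RNA of mouse forebrain was measured on 15 arrays, 1 per sample, grouped by the labels. The authors deposited a linear intensity for each probe set and array, and the sources used here do not name the software that summarised it. After trimming 2% of probe sets at either end, the mean of each array is 150.0, so the authors scaled the arrays to a common mean. Column names gave the sample of all 15 columns.

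Of 45101 probe sets, 64 controls were left out, and log2(intensity + 16) was taken. In the platform annotation 34945 of the other 45037 carry a single symbol and 932 more than 1, while 9160 have no entry. Of these, 34741 matched the GRCm38.p6 gene table by gene number and 0 symbols changed. The 27022 probe sets with the highest means (60%) were tested with limma 3.58.1 (R 4.3.3; lmFit, eBayes with trend, 3 group means in 1 fit, two-sided), and p-values were adjusted by Benjamini-Hochberg over all of them. Members were taken from that fit. The script was tested on simulated data. The array set was defined by splitting the arrays at the widest step in their medians (0.24 in log2). Arrays give no read depth, so their number limits the precision.

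The members and all gene lists were chosen with earlier results of these data known. Values in every sample were given for the members with the smallest p against sham (4 each of the homeostatic and activation genes, 3 for the colony-stimulating factor genes, 2 in each other role), for the 3 with the smallest p between EPO-HI and VEH-HI, and for a member called lower where its role group was higher. From the other list, the 3 with the smallest p in each direction among called genes were named. Alternatives changed the filter, the pseudocount, the normalization, the variance model, the arrays in the fit, the probe sets per gene and the role of Csf1r. Promoters came from RefSeq, with only the 250 bases before the start used.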

Additional observations from a re-analysis of the deposited data

Results flagged for a closer look

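In each group of 5 arrays, the highest or lowest array of each member was compared with the others by Dixon's gap over range, and 5 of 114 groups exceeded the critical value of 0.71. Chance gives about 1 in 20. Cx3cr1 was 8.21 on VEH-Sham 3, against 7.64 to 7.79 on the other sham arrays. Siglech was 6.92 on VEH-Sham 2, against 5.79 to 6.12. Fcgr2b was 6.80 on VEH-Sham 5, against 7.55 to 7.77, the array that also stands apart in median intensity. Selplg was 5.26 on VEH-HI 7, against 6.14 to 6.21, and Cd48 was 4.21 on EPO-HI 14, against 5.33 to 5.61. The 5 values lie on 5 different arrays.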

How the results depend on the processing

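With the array set as a block, where 1 sham array informs the comparison with sham, 0 of 35 members passed against sham in both injured groups, and 3 and 4 probe sets passed in place of 6174 (VEH-HI) and 4939 (EPO-HI). With VEH-Sham 5 as the only sham array, whose spread is then assumed to be that of the other groups, 0 members and 7 and 5 probe sets passed. Equal array medians moved the median difference of all tested probe sets from -0.06 to 0.18 for VEH-HI. They gave 25 members and 8603 probe sets for EPO-HI against sham, with 88.7% of calls higher in place of 40.6%. For VEH-HI that share was 43.1%, and 85.6% with equal medians, 53.2% after quantile normalization and 55.5% with the brightest 40% of probe sets, which gave 3008 calls for EPO-HI against sham. No called member changed direction under these settings. The mean over all probe sets of a gene left 15 members called for VEH-HI against sham in place of 23. It turned Csf1 to -0.24 and Cd53 to -0.028, and for EPO-HI against sham it turned Csf1 to -0.46 and Pycard to -0.0049. With log2(intensity + 64), activation exceeded homeostatic genes by 0.74 in place of 1.23. With Csf1r counted as homeostatic, that group's median for VEH-HI against sham was -0.06 in place of -0.21. Of its 8 genes, 1 was then called higher and 2 lower. Without single arrays, called members numbered 15 to 24 for VEH-HI and 13 to 20 for EPO-HI against sham, and 15 of the 23 were called every time. Called probe sets numbered 3824 to 9609, 2509 to 9047 and, for EPO-HI against VEH-HI, 0 to 4. Without VEH-Sham 5, 21 members passed: Lyz2, Msr1 and Cd53 no longer did, and Fcgr2b was called lower (-0.50, limma adjusted p = 0.0145). Members below 0 with erythropoietin numbered 22 to 35, and the activation contrast ran from -0.20 to 0.038. The cause of these changes was not tested. No paired analysis was possible because replicate numbers run from 1 to 15 through the series and no 2 groups share any. With 5 arrays a group and 1 sham array beside the injured ones, small differences cannot be resolved.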

Other observations

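Of the other microglia and macrophage genes, 2 had an unadjusted limma p under 0.05 between EPO-HI and VEH-HI, and they are named here after their values were seen. Gpnmb, a glycoprotein of phagocytes, was 6.14 ± 0.35 (SD, n = 5) in VEH-HI, 5.31 ± 0.48 in EPO-HI and 5.46 ± 0.40 in VEH-Sham, a difference of -0.83 with erythropoietin (limma adjusted p = 1). Syk, a kinase downstream of Fc receptors, was 5.94 ± 0.24 in VEH-HI, 5.45 ± 0.21 in EPO-HI and 6.04 ± 0.28 in VEH-Sham, a difference of -0.50 (limma adjusted p = 1). The Gpnmb means of VEH-Sham (5.461) and EPO-HI (5.31) lay under the filter at 5.464, which Gpnmb passed only through the VEH-HI arrays. The mean of Gpnmb with erythropoietin lay within 1 SD of its sham mean, and that of Syk lay below the means of both other groups. Fcrls, a homeostatic microglial gene of that list also named after its value was seen, rose by 0.96 after injury under vehicle (limma adjusted p = 0.00184), and differed by 0.82 from VEH-Sham 5. Olfml3, Sall1 and Slc2a5, also homeostatic genes of that list, did not pass: Olfml3 differed by 0.16, Sall1 by 0.06 and Slc2a5 by -0.39 (limma adjusted p of 0.517, 0.801 and 0.121).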
